A study of Mus musculus with 24 samples.

Results

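Myotubes of the mouse C2C12 line on Day 5 of differentiation were compared with those on Day 2, from 6 of the 24 arrays of a time course: the 3 arrays labelled Day 2 and the 3 labelled Day 5. The cells were grown with 10% fetal bovine serum and then moved to medium with 2% serum, which was renewed every 2 days. Both groups thus shared the line, the growth medium and the low-serum medium, and differed in the time spent in the latter. C2C12 is a single immortalised line, and a differentiated dish holds fused and unfused cells together. Nothing in the labels tells whether separate dishes stand behind the 3 arrays of a day. The p-values therefore rest on the spread from array to array, and that spread may be technical. The labels also do not give the time from the last change of medium to harvest. The 6 arrays of Day 3 and Day 4 were used to see how the differences were reached.

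When serum is lowered, myoblasts leave the cell cycle, align and fuse into multinucleated myotubes, while some cells stay single as reserve cells. The myogenic transcription factors, among them MyoD and myogenin, switch on muscle genes early in this course. The later phase, maturation, is known for the assembly of sarcomeres, the exchange of embryonic for later isoforms of the contractile proteins and the build-up of the machinery that releases calcium upon excitation. An array reads the RNA of the whole dish, so fewer cells of a type and less RNA per cell cannot be told apart.

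A value below is an intensity, the deposited level of a probe set on a linear scale on which each array has a trimmed mean near 150. A probe set was tested if its mean reached 100 on Day 2 or Day 5, and it was called higher or lower if its p from limma, adjusted by the method of Benjamini and Hochberg over all probe sets tested, was under 0.05. Each gene stands by its probe set with the largest moderated t. Day 2 replicate 2 and Day 5 replicate 3 stood apart from the other arrays of their day. Pearson's r between log2 values was 0.991 between Day 2 replicates 1 and 3 but 0.966 and 0.963 with replicate 2, and 0.983 between Day 5 replicates 1 and 2 but 0.970 and 0.968 with replicate 3. The deviations of these 2 arrays from the means of their days ran together, with r = 0.81 across probe sets, as a description. Without both arrays the genes called rose from 594 to 1036 higher and from 807 to 1284 lower. Without Day 2 replicate 3 alone 242 were higher and 362 lower. Counts of list members given below for fits without arrays are to be read beside such shifts over all genes. The log2 ratio of 3′ to 5′ signal of Gapdh, a control for RNA quality, lay between -0.479 and -0.377 on the 6 arrays, and the muscle genes that define myotubes were high on each of them. Of the macrophage markers 9 of 10, and of the endothelial markers 8 of 8, stayed below 10 on these 6 arrays.

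Between Day 2 and Day 5, 1914 of 12563 probe sets were called (15.2%), 826 higher (6.57%) and 1088 lower (8.66%). They stood for 594 genes that were higher (8.12% of 7312 tested) and 807 that were lower (11.0%), of which 219 and 330 changed by at least 2-fold. The median over all genes tested was -0.04 on the log2 scale. Counts of list members below are to be read beside these shares of 8.12% higher and 11.0% lower. The arrays of the days did not overlap for 42.0% of the genes tested.

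Few of these changes could be seen from 1 day to the next. In 1 limma fit to the 12 arrays of Day 2 to Day 5, over 12708 probe sets, Day 3 differed from Day 2 in 96 (0.755%), Day 4 from Day 3 in 4 (0.0315%, each lower) and Day 5 from Day 4 in 30 (0.236%, of which 0.142% of the probe sets were higher and 0.0944% lower), whereas Day 5 differed from Day 2 in 3251 (25.6%). At an unadjusted p under 0.05, 1490 probe sets differed between Day 3 and Day 4 in this fit. A slope over the 4 days, fitted per probe set, was called upward for 1512 and downward for 2104 (28.5% in all). No probe set was called by limma for a difference between the step from Day 2 to Day 3 and the step from Day 4 to Day 5, against 1636 at an unadjusted p under 0.05, so the data could not say for any gene that it moved mainly early or mainly late. The plot of calls by interval shows the small counts between neighbouring days beside the large counts over the whole interval.

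**Figure D1:**
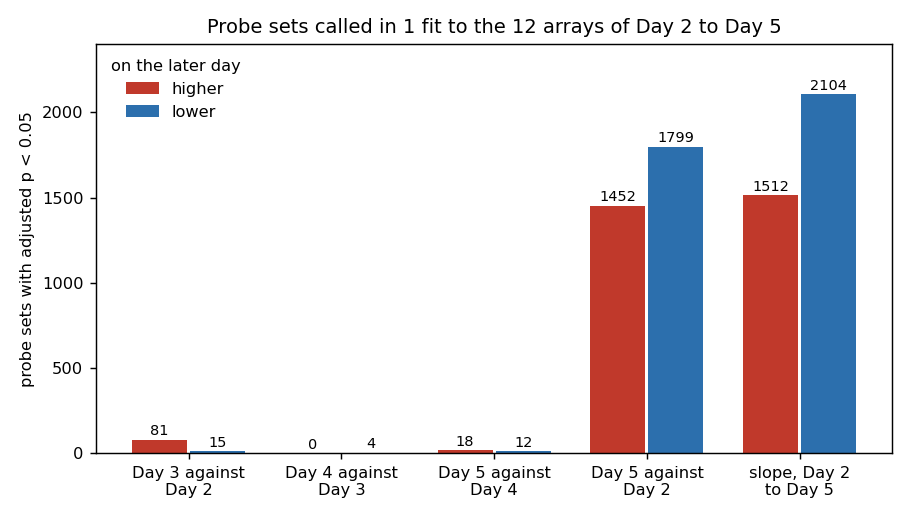
Number of probe sets with an adjusted p under 0.05 (vertical axis) for each pair of days and for the slope over 4 days, in 1 limma fit to 12 arrays, with bars for probe sets higher and lower on the later day. The 3 steps between neighbouring days gave 96, 4 and 30 calls in all, against 3251 between Day 2 and Day 5.

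The arrays of Day 3 and Day 4 entered neither group of the comparison, so they were set beside it. Of the 826 probe sets called higher on Day 5, 695 (84.14%) were also higher on Day 4 than on Day 3, with a median log2 difference of 0.22. Of the 1088 called lower, 1025 (94.21%) were lower on Day 4 than on Day 3, with a median of -0.29. Over all probe sets tested, 41.26% were higher on Day 4 than on Day 3. The shares of rises and falls thus have unlike baselines and are not to be compared with each other directly. Of the 10649 that were tested and not called, 67.96% moved the same way in both pairs of days. On their own 6 arrays, Day 4 and Day 3 differed in 3 probe sets by limma (0.0239%), and in 2235 at an unadjusted p under 0.05.

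The 15 genes with the largest rises were taken from called genes whose Day 2 and Day 5 arrays did not overlap. Separate arrays were thus a condition of the choice and are no further evidence for these genes. They were led by Omd and Sfrp2. Omd, or osteomodulin, a small leucine-rich matrix proteoglycan, measured 31.5, 34.5 and 7.85 on Day 2 and 1698, 3028 and 1705 on Day 5. Sfrp2, a secreted antagonist of Wnt ligands, measured 70, 61 and 2.67 on Day 2 and 1749, 3136 and 1701 on Day 5. Every Day 5 array of both genes stood far above every Day 2 array, and the Day 2 values lay near the lower end of the scale, where a fold change is poorly measured. The log2 fold change was 6.66 ± 0.55 (SE, adjusted p = 0.000759) for Omd and 6.55 ± 1.14 (SE, adjusted p = 0.00981) for Sfrp2. Igf1, insulin-like growth factor 1, measured 48, 43.3 and 34.8 on Day 2 and 592, 843 and 394 on Day 5. Its log2 fold change was 3.80 ± 0.27 (SE, adjusted p = 0.000512), and its other 2 tested probe sets were called higher too. Dkk2, another secreted modulator of Wnt signalling, measured 12.3, 11.8 and 17.6 on Day 2 and 428, 1000 and 317 on Day 5, and Sfrp4, a relative of Sfrp2, measured 10.8, 10.7 and 9.83 on Day 2 and 652, 722 and 164 on Day 5. Neither overlapped between the days, and Day 5 replicate 3 was the lowest of its day for both. The log2 fold change was 5.23 ± 0.40 (SE, adjusted p = 0.000643) for Dkk2 and 5.35 ± 0.52 (SE, adjusted p = 0.0013) for Sfrp4. Omd, Sfrp2, Igf1, Dkk2 and Sfrp4 each passed the level filter through Day 5 alone and could be counted as rises only.

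The other leading rises were of several kinds. Ptx3, the pentraxin PTX3 of innate immunity, rose by 3.82 ± 0.32 on the log2 scale, Fbln7, a fibulin of the matrix, by 3.80 ± 0.27, and C1s1, a protease of the complement cascade, by 3.63 ± 0.35. Col12a1, a fibril-associated collagen, rose by 3.41 ± 0.46, Gpx3, a secreted glutathione peroxidase, by 3.48 ± 0.37, and Pappa2, a protease that cleaves insulin-like growth factor binding proteins, by 3.41 ± 0.21. The rest of the 15 largest rises were Slc1a3, a glutamate transporter, Emb, the cell surface protein embigin, Mettl7a1, a methyltransferase-like protein, and Fgf7, a fibroblast growth factor, at log2 values of 3.18, 2.95, 2.89 and 2.79. Adjusted p lay between 0.000349 for Mettl7a1 and 0.00981 for Sfrp2 over these 15. Of the 12 arrays from Day 2 to Day 5, Day 4 replicate 1 was unlike the others of its day for several of them: Omd measured 907, 202 and 202 on Day 4. C1s1, Gpx3, Pappa2 and Emb each passed the level filter through Day 5 alone and could be counted as rises only.

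The 15 genes with the largest falls, chosen under the same condition of separate arrays, included several of the cell cycle, given with their lists, and the following. Sorcs2, a sorting receptor of neurons and other cells, measured 1278, 1036 and 1406 on Day 2 and 246, 208 and 260.5 on Day 5 (log2 fold change -2.38 ± 0.16, adjusted p = 0.000473). Dtx4, a member of the deltex family that acts in Notch signalling, measured 404, 359 and 458 on Day 2 and 56.6, 79 and 57.7 on Day 5 (log2 fold change -2.67 ± 0.17, adjusted p = 0.00044). Gap43, known for the growth cones of axons, measured 211, 279.9 and 360.3 on Day 2 and 42, 22.4 and 74.5 on Day 5 (log2 fold change -2.75 ± 0.41, adjusted p = 0.00564). The Day 2 and Day 5 arrays of these 3 genes were separate, and another probe set of Dtx4 was called lower as well. D17H6S56E-5, a transcript named in the array's annotation only by a locus symbol, measured 551, 469 and 629.5 on Day 2 and 49.8, 34.2 and 31.1 on Day 5 (log2 fold change -3.86 ± 0.21, adjusted p = 0.000328) and had the largest log2 fall of the 15. Dtx4, Gap43 and D17H6S56E-5 each passed the level filter through Day 2 alone and could be counted as falls only.

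**Figure D2:**
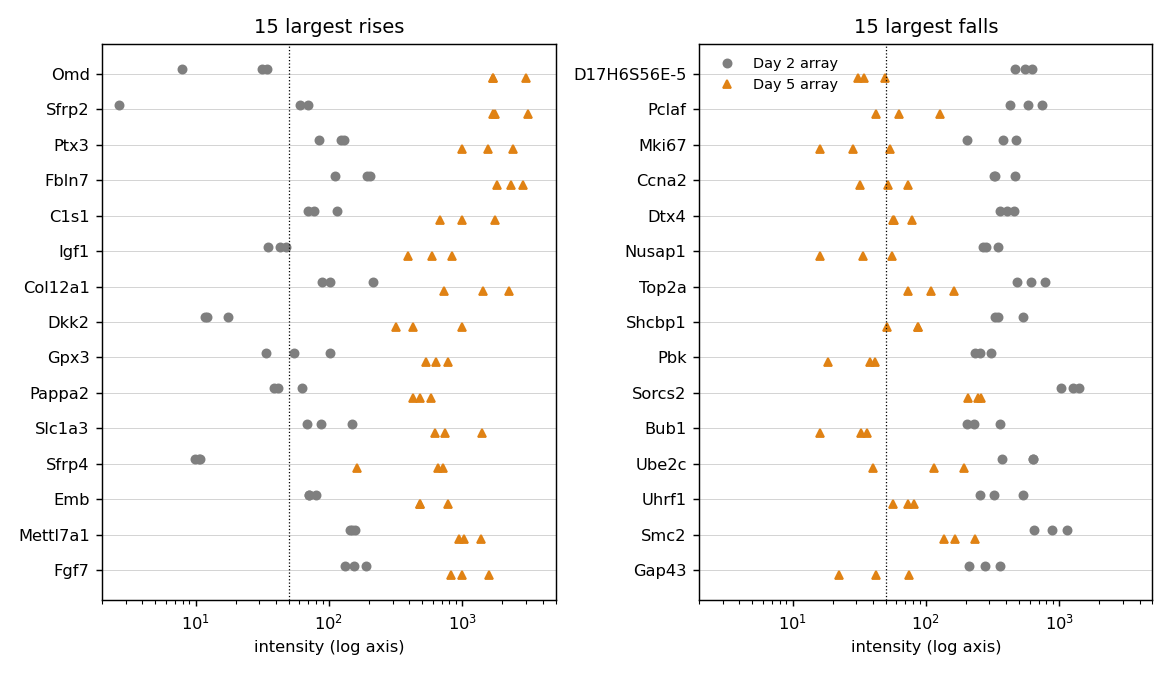
Intensity on a log axis of each Day 2 array (grey circles) and each Day 5 array (orange triangles) for the 15 genes with the largest rises (left) and the 15 with the largest falls (right), ranked after values under 50 were raised to 50 (dotted line). In none of the 30 genes do the arrays of the days overlap, which was a condition for entering the plot.

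Genes of cell division fell over this interval. Of 60 listed genes of mitosis, 59 were on the array and 45 were measured, that is, reached a mean of 100 on either day. Of these, 32 reached it on Day 2 alone and so could only be counted by being lower on Day 5, and they are given as values only. All 13 genes that reached 100 on both days fell, with a median of -1.70, against 11.0% of all genes tested. Top2a, the topoisomerase that untangles replicated chromosomes, measured 616, 479 and 777 on Day 2 and 161, 73.2 and 110.2 on Day 5. Smc2, a core subunit of the condensin complex, measured 877, 644 and 1151 on Day 2 and 232, 137 and 166 on Day 5. The highest Day 5 value of each lay below the lowest Day 2 value, which the choice of the leading falls required. The log2 fold change was -2.49 ± 0.30 (SE, adjusted p = 0.00273) for Top2a and -2.31 ± 0.26 (SE, adjusted p = 0.0024) for Smc2. Ube2c, the ubiquitin-conjugating enzyme of the anaphase-promoting complex, measured 370.4, 633 and 632 on Day 2 and 115, 40 and 192 on Day 5. It was the most variable of the leading falls (log2 fold change -2.46 ± 0.53, adjusted p = 0.0211), and its Day 5 arrays were all below its Day 2 arrays, as that choice required. The call of Ube2c was lost without Day 2 replicate 3 or Day 5 replicate 1, with an adjusted p of up to 0.0779.

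Among those that passed through Day 2 alone, Mki67, which encodes the proliferation marker Ki-67, measured 382, 203 and 471 on Day 2 and 53.9, 16.1 and 28.3 on Day 5. Ccna2, cyclin A2, measured 332, 327 and 465 on Day 2 and 74.1, 32.1 and 52.1 on Day 5. Bub1, a kinase of the spindle checkpoint, measured 230.1, 204 and 360.3 on Day 2 and 36.4, 16.1 and 32.6 on Day 5. By Day 5 each of the 3 was near or below 50 on most arrays. Nusap1, a spindle protein, Pbk, a mitotic kinase, Bub1b, a checkpoint protein, and Asf1b, a histone chaperone, were at 299 and 35.2, 266 and 32.6, 112 and 8.8 and 156 and 14.3 respectively as means of Day 2 and Day 5. Shcbp1, which acts in cytokinesis, went from a mean of 401 on Day 2 to 75.7 on Day 5.

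The promoters of Top2a, Ube2c and Bub1, which stand among the 15 largest falls, are shown for the motifs that mitotic promoters are known to share, in the windows that RefSeq gives for mouse build GRCm38.p6, from 250 bases before to 50 after the start of the gene. Capitals mark CCAAT boxes, CCAAT or its complement ATTGG, and the letters TTTGAA or TTCAAA, the cell cycle genes homology region or CHR. As background, NF-Y binds CCAAT boxes and the CHR is bound by the MuvB complexes that repress and later activate mitotic genes.
Top2a (chr11:99024140-99024439, minus strand): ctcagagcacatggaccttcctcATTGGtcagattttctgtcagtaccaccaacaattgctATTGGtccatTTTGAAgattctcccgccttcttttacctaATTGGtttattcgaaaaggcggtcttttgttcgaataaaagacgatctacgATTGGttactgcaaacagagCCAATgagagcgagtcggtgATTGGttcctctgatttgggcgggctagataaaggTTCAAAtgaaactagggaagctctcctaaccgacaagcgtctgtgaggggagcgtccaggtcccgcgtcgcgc
Ube2c (chr2:164769679-164769978, plus strand): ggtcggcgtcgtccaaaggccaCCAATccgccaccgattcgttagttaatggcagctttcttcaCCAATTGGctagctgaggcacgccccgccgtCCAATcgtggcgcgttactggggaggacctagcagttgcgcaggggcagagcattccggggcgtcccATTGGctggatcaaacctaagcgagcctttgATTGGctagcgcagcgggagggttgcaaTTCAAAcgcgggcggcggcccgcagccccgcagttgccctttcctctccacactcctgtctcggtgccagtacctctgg
Bub1 (chr2:127831810-127832109, minus strand): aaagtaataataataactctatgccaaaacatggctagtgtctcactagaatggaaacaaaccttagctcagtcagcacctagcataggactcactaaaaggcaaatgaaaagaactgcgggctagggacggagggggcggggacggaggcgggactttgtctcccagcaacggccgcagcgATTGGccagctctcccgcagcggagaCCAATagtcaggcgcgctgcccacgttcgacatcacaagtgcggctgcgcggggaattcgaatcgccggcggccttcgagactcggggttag
In Top2a a CHR began 23 bases before the start with 6 CCAAT boxes and a further CHR upstream of it, in Ube2c a CHR began 29 bases before the start with 6 CCAAT boxes upstream, and in Bub1 there were 2 CCAAT boxes and no CHR of these letters. Of the 6 in Ube2c, 2 overlap, as CCAAT and ATTGG within the same stretch CCAATTGG that began 186 bases before the start. Of the 45 measured mitosis genes, 39 had a promoter in the table. A CHR was found in 27 of the 39 (69.2%), against 18.1% of all 27025 promoters of this length and 11.3% of those of the genes tested, on either strand. A CCAAT box was found in 79.5% of the 39, against 37.9% of all promoters and 38.2% of those of the genes tested, and both in 64.1%, against 7.12%. Over the 648 promoters matched to the 807 genes called lower, a CHR was present in 15.9%. These are matches of letters, not binding sites.

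Genes of DNA replication fell as well. Of 43 listed, 41 were on the array and 28 measured, 13 of them through Day 2 alone. Of the 15 that reached 100 on both days, 10 fell and none rose, with a median of -0.89. Uhrf1, which guides the copying of DNA methylation, measured 324, 256 and 532 on Day 2 and 82, 56.8 and 73.3 on Day 5 (log2 fold change -2.34 ± 0.28, adjusted p = 0.00258). Its Day 5 arrays lay within a narrow range below every Day 2 array, the latter a condition of the leading falls, and another probe set was called lower too. Lig1, the ligase of replication, went from a mean of 122 on Day 2 to 16.2 on Day 5, and Mcm3, a subunit of the replicative helicase, from 133 on Day 2 to 22.9 on Day 5, and Uhrf1, Lig1, Mcm3 and Pclaf each passed through Day 2 alone. Pclaf, a clamp-associated factor of replication, was named among the 15 largest falls, at 425, 748 and 581 on Day 2 and 63.2, 42.6 and 127 on Day 5. The list of inhibitors of cyclin-dependent kinases and pocket proteins, which also held growth arrest genes, showed few calls. Of 15 measured, 2 were higher (13.3%) and 1 lower (6.67%), against 8.12% and 11.0% of all genes tested. The rises were those of Gadd45a, a growth arrest gene, by 1.10 ± 0.13 on the log2 scale, and Btg1, an antiproliferative gene, by 0.74 ± 0.12. Rbl1, the pocket protein p107, fell by 1.67. Rbl1 passed the level filter through Day 2 alone and could be counted as a fall only. Rises in this list came to 4 without Day 2 replicate 2. Over the 28 measured genes of DNA replication, 22 were called lower, and the falls came to 12 without Day 2 replicate 3 and 13 without Day 5 replicate 2.

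Among the contractile genes, the slow, perinatal and adult fast myosins rose, the embryonic myosin and the troponins did not pass the test, and some thin filament genes rose. Of the 6 measured myosin heavy chains, 4 were called higher (66.7%, against 8.12% of all genes tested) and none lower. Myh7, the slow and cardiac beta isoform, measured 642, 368 and 431 on Day 2 and 2863, 1825 and 1664 on Day 5. Myh8, the perinatal isoform, measured 166, 104 and 124 on Day 2 and 622, 382 and 345 on Day 5. Myh1, an adult fast isoform, measured 1959, 1294 and 1840 on Day 2 and 4377, 3572 and 3298 on Day 5. In each the lowest Day 5 array was above the highest Day 2 array, at 2.14 ± 0.27 (SE, adjusted p = 0.00317) for Myh7, 1.75 ± 0.26 (SE, adjusted p = 0.00561) for Myh8 and 1.16 ± 0.20 (SE, adjusted p = 0.00877) for Myh1. Myh3, the embryonic isoform, measured 12480, 9319 and 11490 on Day 2 and 12810, 11060 and 9872 on Day 5, with overlapping arrays and a log2 difference of 0.02 ± 0.16 (adjusted p = 0.944). Myh9, a non-muscle myosin, was called higher by 1 probe set (log2 fold change 1.73 ± 0.43, adjusted p = 0.034), but its other 3 tested probe sets lay between -0.46 and -0.14 and were not called, so its direction is not settled. Myh10, another non-muscle myosin, measured 1534, 992 and 1732 on Day 2 and 1068, 982 and 678 on Day 5 and was not called (adjusted p = 0.144). The call of Myh9 was lost without Day 2 replicate 1 or 3 or Day 5 replicate 1, 2 or 3, with an adjusted p of up to 0.116.

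Of the 6 measured myosin light chain genes and binding proteins, Myl2 alone was called. Myl2, the regulatory light chain of slow and ventricular muscle, measured 15, 20.5 and 49.1 on Day 2 and 324, 173 and 417 on Day 5. It passed the level filter through Day 5 alone and its arrays were separate (log2 fold change 3.53 ± 0.48, adjusted p = 0.00388). Myl1, Myl4, Mylpf and Mybph, which encode the fast, embryonic and phosphorylatable light chains and a myosin-binding protein, had log2 differences of 0.32, 0.21, 0.14 and 0.21 with adjusted p from 0.113 to 0.559. Mylk4, a myosin light chain kinase, was at 0.73 (adjusted p = 0.065). None of the 7 measured troponins was called, although all 7 differences were positive, from 0.09 for Tnnc2, which turned to -0.02 after quantile normalization, to 0.57 for Tnnt1. Tnnt2, the cardiac and embryonic troponin T, came nearest at 0.41 ± 0.12 (adjusted p = 0.0519), and Tnnc1, Tnni1, Tnni2 and Tnnt3 were at 0.30, 0.21, 0.43 and 0.51. Without Day 2 replicate 2, Tnnt1, Tnnt3 and Tnni2 were called higher, with adjusted p of 0.0467, 0.0472 and 0.0484.

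Of 11 measured genes of the thin filament outside the troponins, 5 were called higher (45.5%), Tpm3 among them, and none lower. Lmod2, a leiomodin that nucleates actin filaments of the sarcomere, measured 424, 473 and 347 on Day 2 and 1159, 1055 and 1261 on Day 5. Neb, the giant nebulin that lines the thin filament, measured 1014, 666 and 596 on Day 2 and 1771, 1584 and 1370 on Day 5. Tmod1, the tropomodulin that caps its pointed end, measured 562, 560.4 and 535 on Day 2 and 936, 776 and 876 on Day 5. Day 5 arrays were above Day 2 arrays in each, at 1.49 ± 0.16 (SE, adjusted p = 0.00172) for Lmod2, 1.08 ± 0.22 (SE, adjusted p = 0.0159) for Neb and 0.64 ± 0.13 (SE, adjusted p = 0.015) for Tmod1. Acta1, the alpha-actin of adult skeletal muscle, measured 11640, 10960 and 11260 on Day 2 and 13520, 11980 and 11860 on Day 5 and Actc1, the cardiac isoform, 5256, 5274 and 4395 on Day 2 and 6050, 5191 and 6192 on Day 5. Neither passed (adjusted p = 0.485 and adjusted p = 0.326), and both were already high on Day 2. Acta2, the smooth muscle isoform, rose by 0.83 ± 0.18 on the log2 scale by the probe set chosen, while its other probe set was at 0.15 and not called. Tpm3, the slow tropomyosin, rose by 2.33 ± 0.27 by the probe set chosen, but of its other 4 probe sets 1 was called higher and 1 lower, so the gene has no single direction. Tpm1 and Tpm2, the fast and beta tropomyosins, Nrap, an anchor of thin filaments, and Lmod3, another leiomodin, were at -0.56, 0.50, 0.99 and 0.37, not called. Thin filament rises came to 2 without Day 2 replicate 3 and 3 without Day 2 replicate 1 or Day 5 replicate 1 or 2. Over all genes, those called higher fell from 594 to 242 without Day 2 replicate 3. The calls of Neb, Tmod1 and Acta2 were each lost in 1 or more fits without Day 2 replicate 1 or 3 or Day 5 replicate 1 or 2, with an adjusted p of up to 0.0812.

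**Figure D3:**
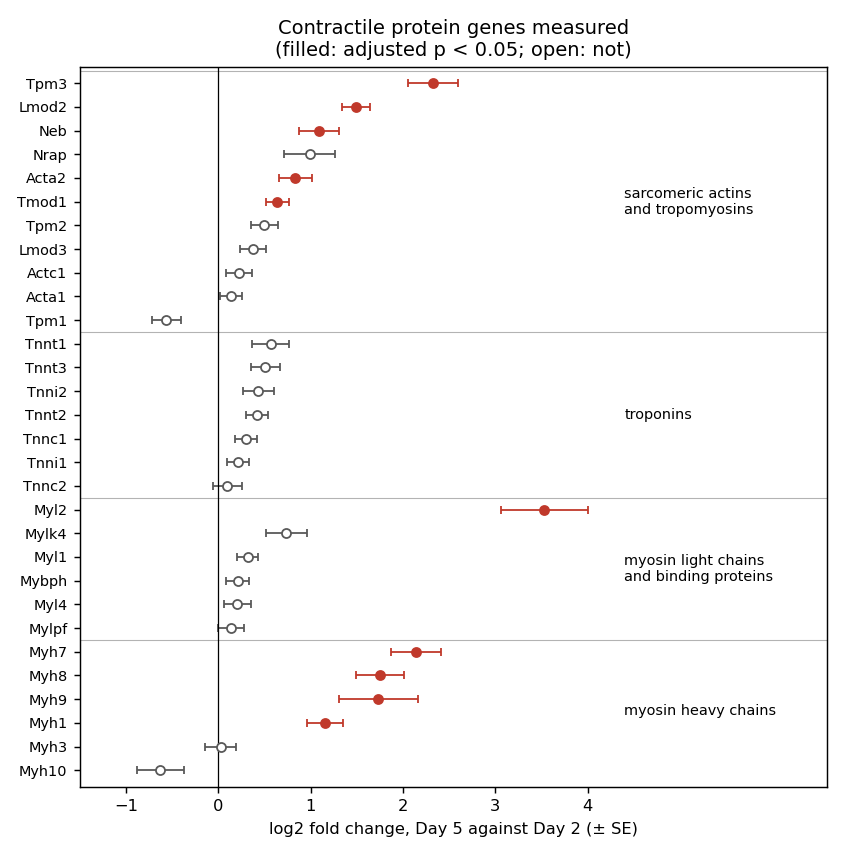
Log2 fold change of Day 5 against Day 2, with its SE, of the 30 measured contractile genes by family, with filled points for an adjusted p under 0.05. Myl2, Tpm3 and Myh7 lie above 2 while the troponins lie between 0.09 and 0.57 with open points.

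In the scaffold of the sarcomere, 8 of 27 measured genes of the Z-disc, titin and M-band rose (29.6%) and 1 fell. Of the 24 that reached 100 on both days, 6 rose and 1 fell. Tcap, the titin cap of the Z-disc, measured 17.1, 23.2 and 19.7 on Day 2 and 258, 152 and 265 on Day 5. Trim63, the ubiquitin ligase MuRF1 that binds titin, measured 254, 267 and 238 on Day 2 and 677, 591 and 620.5 on Day 5. Both were higher on every Day 5 array (log2 fold change 3.46 ± 0.24, adjusted p = 0.000473 for Tcap, which passed the level filter through Day 5 alone, and log2 fold change 1.32 ± 0.12, adjusted p = 0.0012 for Trim63). Ttn, titin itself, which was chosen for mention after its values were seen, measured 122, 85.7 and 88.4 on Day 2 and 419, 319 and 236 on Day 5 with log2 fold change 1.70 ± 0.24, adjusted p = 0.00439, and its other 4 probe sets lay between 0.45 and 1.12, of which 2 were called higher. Pdlim7, a PDZ and LIM protein of actin filaments, was the exception at 284, 441 and 297 on Day 2 and 137, 184 and 188 on Day 5 (log2 fold change -0.99 ± 0.21, adjusted p = 0.0209). Des, desmin, the intermediate filament of muscle, measured 2640, 2702 and 2635 on Day 2 and 2263, 1866 and 2195 on Day 5 and was not called (adjusted p = 0.119). Ttn passed the level filter through Day 5 alone and could be counted as a rise only. Z-disc rises came to 5 without Day 2 replicate 3. The call of Pdlim7 was lost without Day 2 replicate 3 or Day 5 replicate 1 or 2, with an adjusted p of up to 0.0697.

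Of the genes of excitation-contraction coupling and calcium handling, 5 of 21 measured rose (23.8%) and none fell. Of the 19 that reached 100 on both days, 4 rose and none fell. Casq1, the calsequestrin that stores calcium in the sarcoplasmic reticulum of fast fibres, measured 107, 134 and 96 on Day 2 and 631, 531 and 647 on Day 5. Mtm1, a lipid phosphatase needed for the triad, measured 100.2, 73 and 108 on Day 2 and 239, 274 and 208 on Day 5. The Day 5 values of Casq1 were several times those of Day 2 with little spread within a day (log2 fold change 2.44 ± 0.16, adjusted p = 0.000473), and those of Mtm1 were also separate (log2 fold change 1.37 ± 0.19, adjusted p = 0.00398). On the way there, Casq1 measured 174, 189.7 and 268 on Day 3 and 435, 182 and 432 on Day 4. Its slope over the 4 days was called upward with an adjusted p of 5.6e-05 by limma. That fit holds the same Day 2 and Day 5 arrays, so it is not separate evidence. The step from Day 3 to Day 4 was not called (adjusted p = 0.427 by limma). Mtm1 passed the level filter through Day 5 alone and could be counted as a rise only. Excitation-contraction rises came to 3 without Day 2 replicate 1 or 3 or Day 5 replicate 1, 2 or 3.

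Promoters of 3 genes that rose in these groups are shown for the E-box CAGCTG, in capitals, whose letters form the core that MyoD and myogenin prefer. The windows are again those of RefSeq on GRCm38.p6.
Lmod2 (chr6:24597521-24597820, plus strand): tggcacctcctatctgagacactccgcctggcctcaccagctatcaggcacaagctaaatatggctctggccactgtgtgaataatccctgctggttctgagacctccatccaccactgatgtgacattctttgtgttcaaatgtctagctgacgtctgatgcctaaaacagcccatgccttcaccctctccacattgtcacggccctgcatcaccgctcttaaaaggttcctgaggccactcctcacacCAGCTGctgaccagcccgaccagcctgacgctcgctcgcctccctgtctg
Casq1 (chr1:172219846-172220145, minus strand): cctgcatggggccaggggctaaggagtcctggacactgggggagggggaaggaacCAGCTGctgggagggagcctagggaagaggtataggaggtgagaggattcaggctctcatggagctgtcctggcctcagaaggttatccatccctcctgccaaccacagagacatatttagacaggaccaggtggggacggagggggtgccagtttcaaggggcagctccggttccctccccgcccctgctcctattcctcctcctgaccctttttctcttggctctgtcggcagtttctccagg
Trim63 (chr4:134314870-134315169, plus strand): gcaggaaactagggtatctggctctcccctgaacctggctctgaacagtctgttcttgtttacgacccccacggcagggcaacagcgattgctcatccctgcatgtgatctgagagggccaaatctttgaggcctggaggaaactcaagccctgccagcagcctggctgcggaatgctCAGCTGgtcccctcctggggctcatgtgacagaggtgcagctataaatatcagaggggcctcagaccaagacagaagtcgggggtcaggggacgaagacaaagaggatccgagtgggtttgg
The E-box began at the first transcribed base in Lmod2, 195 bases before it in Casq1 and 72 bases before it in Trim63. CAGCTG, which reads the same on both strands, was present in 6 of 9 matched promoters of the thin filament list, in 31.8% of 22 of the Z-disc list, in 16.1% of all promoters, in 13.9% of those of the genes tested, and in 13.8% of the 458 matched to genes called higher, against 19% of the 648 matched to genes called lower. The MEF2 motif was found in 27.3% of the Z-disc promoters and in 0 of the 9 of the thin filament list, against 3.26% of all and 1.65% of those of the genes tested. None of the 3 promoters shown held a MEF2 motif, which says only that its letters are not in these windows.

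At the surface of the myotube the calls were few and pointed both ways. Of 14 measured genes of the acetylcholine receptor and the neuromuscular junction 3 were called, all lower (21.4%, against 11.0% of all genes tested). Rapsn, the rapsyn that clusters the receptor, measured 516, 560.4 and 559 on Day 2 and 369, 302 and 375 on Day 5, and Nes, the intermediate filament nestin, measured 483, 424 and 357 on Day 2 and 247, 261 and 238 on Day 5. Both were lower on every Day 5 array (log2 fold change -0.65 ± 0.14, adjusted p = 0.0185 for Rapsn and log2 fold change -0.75 ± 0.15, adjusted p = 0.0145 for Nes). In the dystrophin complex and membrane repair, 1 of 13 rose and 1 fell (7.69% each), near the 8.12% and 11.0% of all genes tested. Dysf, the dysferlin of membrane repair, measured 129, 90 and 101 on Day 2 and 271, 182 and 169.7 on Day 5 (log2 fold change 0.95 ± 0.22, adjusted p = 0.0271). Sntb1, a syntrophin, measured 146, 85.4 and 175 on Day 2 and 69.1, 42.2 and 48.8 on Day 5 (log2 fold change -1.31 ± 0.30, adjusted p = 0.0244). The arrays of the days were separate in both. Sgce, a sarcoglycan, and Itga7, an integrin subunit of muscle, had log2 differences of 0.06 and -0.14 and did not pass. Sntb1 passed the level filter through Day 2 alone and could be counted as a fall only. Junction falls came to 0 without Day 2 replicate 1 and 1 without Day 2 replicate 3 or Day 5 replicate 1 or 2. Dystrophin complex falls came to 3 without Day 2 replicate 2. The calls of Rapsn, Nes, Dysf and Sntb1 were each lost in 1 or more fits without Day 2 replicate 1 or 3 or Day 5 replicate 1 or 2, with an adjusted p of up to 0.0991.

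Of the genes of fusion and adhesion, 6 of 15 measured were lower (40.0%) and 2 higher (13.3%), against 11.0% and 8.12% of all genes tested. Of the 13 that reached 100 on both days, 2 rose and 4 fell. Cdh15, the M-cadherin of myoblasts and satellite cells, measured 2503, 2149 and 2691 on Day 2 and 701, 397 and 497 on Day 5. Cd9, a tetraspanin of the fusing membrane, measured 2978, 3571 and 3289 on Day 2 and 1742, 2064 and 2014 on Day 5. Vcam1, a cell adhesion molecule, measured 2061, 1643 and 2100 on Day 2 and 1175, 1271 and 908 on Day 5. All 3 were lower on every Day 5 array, Cdh15 most clearly (log2 fold change -2.24 ± 0.22, adjusted p = 0.00133), Cd9 and Vcam1 at -0.76 ± 0.14 and -0.80 ± 0.17. In between, Cdh15 measured 1634, 2147 and 2195 on Day 3 and 957, 1703 and 1395 on Day 4, and none of its steps between neighbouring days was called. Cdh2, N-cadherin, rose by 0.54 ± 0.13 by the probe set chosen, while its other probe set was at -0.03 and not called. Tmem182, a muscle transmembrane protein, rose by 0.62 ± 0.16. Fusion rises came to 0 without Day 2 replicate 1 or 3 or Day 5 replicate 1 or 2 and falls came to 1 without Day 2 replicate 3, 2 without Day 2 replicate 1 and 3 without Day 5 replicate 2. The calls of Cd9, Vcam1, Cdh2 and Tmem182 were each lost in 1 or more fits without Day 2 replicate 1, 2 or 3 or Day 5 replicate 1, 2 or 3, with an adjusted p of up to 0.137.

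Myogenin and MyoD did not pass the test, while Myf5 rose. Myog, myogenin, measured 8788, 8139 and 8039 on Day 2 and 9609, 8917 and 9581 on Day 5, and Myod1, MyoD, measured 973, 1142 and 956 on Day 2 and 1074, 969 and 1151 on Day 5. The Day 5 arrays of Myog lay slightly above those of Day 2 and those of Myod1 overlapped, and neither passed, at 0.17 ± 0.12 (SE, adjusted p = 0.372) and 0.06 ± 0.14 (SE, adjusted p = 0.82). Myf5, the factor of the same family that marks early myoblasts and satellite cells, measured 457, 526 and 472 on Day 2 and 924, 1181 and 1461 on Day 5. It was higher on every Day 5 array (log2 fold change 1.27 ± 0.18, adjusted p = 0.00488). Eya4, a coactivator of homeobox proteins, measured 771, 704 and 483 on Day 2 and 1435, 1447 and 1493 on Day 5 and was likewise separate (log2 fold change 1.19 ± 0.19, adjusted p = 0.00656). Of the 18 measured myogenic regulators these 2 rose and 4 fell (11.1% and 22.2%), against 8.12% and 11.0% of all genes tested. The median of the list was 0.03. The falls were Six4, a homeobox factor, Hdac5, a class IIa deacetylase that represses MEF2, Tcf3, an E protein partner of MyoD, and Mrtfb, a coactivator of SRF, at -0.90, -0.67, -0.58 and -0.55 on the log2 scale. The other 2 probe sets of Six4 lay between -0.06 and 0.22 and were not called. Mef2a, Mef2c and Mef2d, the MEF2 factors measured, were at -0.70, 0.59 and -0.18, and Srf at -0.01, with none past the threshold. The E proteins Tcf12 and Tcf4 were at -0.43 and 0.32, Eya1 at 0.65, Smyd1, a muscle methyltransferase, at 0.19, Tead4 at -0.09 and Rb1, the retinoblastoma protein, at 0.36, none of them called. Regulator falls came to 0 without Day 2 replicate 1 or 3 or Day 5 replicate 1 or 3 and 2 without Day 5 replicate 2. The calls of Six4, Hdac5, Tcf3 and Mrtfb were each lost in 1 or more fits without Day 2 replicate 1, 2 or 3 or Day 5 replicate 1, 2 or 3, with an adjusted p of up to 0.179.

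Genes of the Id proteins, which bind E proteins and keep them from myogenic factors, rose. Id2 measured 96.8, 181 and 80.1 on Day 2 and 556, 713 and 702 on Day 5. Id3 measured 196, 300.3 and 106 on Day 2 and 925, 1328 and 1200 on Day 5. Id1 measured 180.1, 307 and 151 on Day 2 and 504, 638 and 726 on Day 5. No Day 5 array of the 3 genes was as low as the highest Day 2 array, and Day 2 replicate 2 was the highest of its day in each. The log2 fold change was 2.54 ± 0.29 (SE, adjusted p = 0.00247) for Id2, 2.63 ± 0.35 (SE, adjusted p = 0.00388) for Id3 and 1.60 ± 0.27 (SE, adjusted p = 0.009) for Id1. On Day 4 Id2 measured 297, 135 and 171. Snai2, the repressor Slug, rose by 0.91 ± 0.17, and Hes1, an effector of Notch, measured 149.5, 184 and 145 on Day 2 and 83.5, 48.8 and 94.3 on Day 5 and fell (log2 fold change -1.12 ± 0.25, adjusted p = 0.0243). In all, 4 of the 10 measured inhibitors of myogenic differentiation rose (40.0%) and 1 fell. Of the 8 that reached 100 on both days, 4 rose and none fell. Sim2, Zeb1, Zeb2, Hes6 and Bhlhe40 were at -0.27, -0.20, 0.43, 0.36 and 0.09 and were not called. Hes1 passed the level filter through Day 2 alone and could be counted as a fall only. The calls of Snai2 and Hes1 were each lost in 1 or more fits without Day 2 replicate 1 or 3 or Day 5 replicate 1, with an adjusted p of up to 0.0688.

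**Figure D4:**
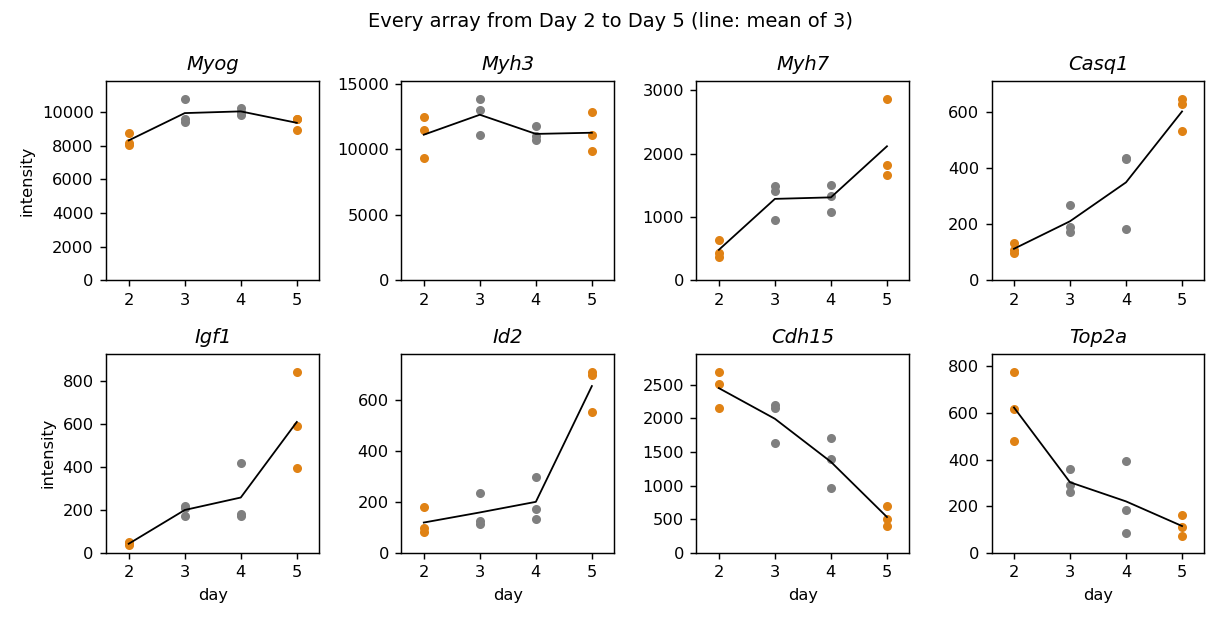
Intensity on each of the 3 arrays of Day 2, Day 3, Day 4 and Day 5 (points, with the Day 2 and Day 5 arrays in orange) and the mean of each day (line) for 8 genes, each on its own axis from 0. Myog and Myh3 were not called, Myh7, Casq1, Igf1 and Id2 were called higher, and Cdh15 and Top2a lower.

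Since unfused cells share the dish, markers of reserve and satellite cells were read beside these results. Of 20 markers on the array 12 were measured, of which 1 rose (8.33%) and 2 fell (16.7%), against 8.12% and 11.0% of all genes tested. Of the 20, 5 stayed below 10 on all 6 arrays, the defining satellite cell factors Pax3 and Pax7 among them. Spry1, an inhibitor of growth factor signalling kept by quiescent satellite cells, measured 134, 135 and 119 on Day 2 and 395, 422 and 321 on Day 5 (log2 fold change 1.55 ± 0.15, adjusted p = 0.00125). Notch3 measured 326, 292 and 285 on Day 2 and 97.7, 160.3 and 114 on Day 5 (log2 fold change -1.31 ± 0.19, adjusted p = 0.00553) and Notch1 measured 224, 205 and 197 on Day 2 and 122, 108 and 113 on Day 5 (log2 fold change -0.87 ± 0.12, adjusted p = 0.00453). Spry1 was thus higher and both Notch receptors lower on every Day 5 array. Cd34, Sdc4, Megf10, Notch2, Gas1, Cxcr4, Itgb1 and Pdgfra, which complete the measured list with Itga7, lay between -0.41 for Cd34 and 0.54 for Pdgfra on the log2 scale, none called. The summed intensity of the 20 markers ranged from 14350 to 17690 on Day 2 and from 13590 to 17380 on Day 5. Whether the share of unfused cells takes part in the changes of Myf5, the Id genes or the secreted genes was not tested.

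Of 12 measured members of the insulin-like growth factor system 1 rose (8.33%) and 2 fell (16.7%), against 8.12% and 11.0% of all genes tested. Of the 10 that reached 100 on both days, none rose and 2 fell. The rise was that of Igf1, described above, which passed the level filter through Day 5 alone. Igfbp2 measured 2670, 3450 and 3418 on Day 2 and 589.6, 652 and 992 on Day 5. Igfbp5, a binding protein that differentiating myoblasts secrete, measured 1201, 930.2 and 1242 on Day 2 and 381, 391 and 410.5 on Day 5. Both binding proteins fell with no overlap (log2 fold change -2.12 ± 0.22, adjusted p = 0.00163 for Igfbp2 and log2 fold change -1.50 ± 0.15, adjusted p = 0.00137 for Igfbp5). Igf2, the autocrine ligand of C2C12 differentiation, measured 764, 1151 and 528 on Day 2 and 1047, 1040 and 1591 on Day 5, with overlapping arrays and log2 fold change 0.63 ± 0.30, adjusted p = 0.202. Without Day 2 replicate 2 alone its adjusted p was 0.0427. The receptors Igf1r, Igf2r and Insr were at -0.61, -0.30 and 0.19 on the log2 scale, the kinases Akt1 and Akt2 at -0.25 and 0.19, and the binding proteins Igfbp4, Igfbp6 and Igfbp7 at 0.67, -0.41 and 0.33, none called with all 6 arrays. Igfbp4 had an adjusted p of 0.0301 without Day 5 replicate 1.

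Matrix genes moved in both directions. Of 41 measured collagens and matrix genes 12 rose (29.3%) and 8 fell (19.5%), against 8.12% and 11.0% of all genes tested, and the median was -0.14. Of the 37 that reached 100 on both days, 10 rose and 6 fell. Thbs2, a thrombospondin that modulates cell contacts with the matrix, measured 177, 145 and 153 on Day 2 and 602, 924 and 549.9 on Day 5. Col12a1, named above among the leading rises, measured 215, 89.2 and 101 on Day 2 and 1434, 2251 and 728 on Day 5. Col5a3, a chain of type V collagen, measured 144, 102 and 126 on Day 2 and 30.6, 29.8 and 33 on Day 5. The first pair were higher and Col5a3 lower on every Day 5 array (log2 fold change 2.10 ± 0.21, adjusted p = 0.00147, log2 fold change 3.41 ± 0.46, adjusted p = 0.00396 and log2 fold change -1.98 ± 0.16, adjusted p = 0.00065), and the 2 further probe sets of Thbs2 rose too. Of the fibril-forming collagens, Col1a1 measured 756, 656 and 422 on Day 2 and 251, 438 and 299 on Day 5 and Col3a1 measured 4018, 3285 and 3430 on Day 2 and 2907, 3767 and 2100 on Day 5. Neither passed (adjusted p = 0.0691 and adjusted p = 0.362), and the days overlapped in both. Of the proteases and inhibitors 2 of 10 rose and 3 fell. Adamts4 and Adamts1, both metalloproteases of matrix proteoglycans, moved apart: Adamts4 measured 619.9, 424 and 591 on Day 2 and 127, 169 and 108 on Day 5 (log2 fold change -2.02 ± 0.22, adjusted p = 0.00181) and Adamts1 measured 459, 267 and 288 on Day 2 and 870.5, 1195 and 638 on Day 5 (log2 fold change 1.41 ± 0.28, adjusted p = 0.0159). Timp1, an inhibitor of metalloproteases, fell by 1.45 and Plat, tissue plasminogen activator, by 0.63 on the log2 scale, and Mmp2, a gelatinase, rose by 0.74. Adamts5, Mmp11, Mmp14, Plaur and Serpinf1 were at 0.84, 0.06, -0.20, -0.26 and 0.27, not called. Col5a3 passed the level filter through Day 2 alone and could be counted as a fall only. Matrix falls came to 4 without Day 2 replicate 1 or 3 or Day 5 replicate 1. Protease rises came to 0 without Day 2 replicate 3 or Day 5 replicate 1 or 2. The calls of Adamts1, Plat and Mmp2 were each lost in 1 or more fits without Day 2 replicate 1 or 3 or Day 5 replicate 1 or 2, with an adjusted p of up to 0.114.

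In the TGF-beta, BMP and CCN group 7 of 21 measured genes rose (33.3%) and 2 fell. Of the 19 that reached 100 on both days, 5 rose and 2 fell. Ccn2, connective tissue growth factor, measured 1158, 887 and 731 on Day 2 and 4536, 4346 and 3052 on Day 5. Ccn1, its relative CYR61, measured 951, 886 and 712 on Day 2 and 3123, 4435 and 3462 on Day 5. The values of both were about 4 times as high on Day 5, with no overlap (log2 fold change 2.11 ± 0.22, adjusted p = 0.00174 and log2 fold change 2.11 ± 0.18, adjusted p = 0.000832), and the other 3 probe sets of Ccn1 were called higher. Bmp4 and Inhba, ligands chosen for mention after their values were seen, measured 259, 304 and 95.3 on Day 2 and 986, 2182 and 1027 on Day 5 (log2 fold change 2.73 ± 0.48, adjusted p = 0.00995) and 53.5, 68.9 and 40.6 on Day 2 and 167, 178 and 167 on Day 5 (log2 fold change 1.68 ± 0.20, adjusted p = 0.00255). Tgfbr2, the type II receptor of TGF-beta, and Bmp1, a protease that matures collagens, fell by 1.38 and 0.91. As background, Id genes are known targets of BMP signalling and CCN genes of the YAP and TEAD pathway. Inhba passed the level filter through Day 5 alone and could be counted as a rise only. TGF-beta group falls came to 0 without Day 2 replicate 1 or 3. The calls of Tgfbr2 and Bmp1 were each lost in 1 or more fits without Day 2 replicate 1 or 3 or Day 5 replicate 1 or 2, with an adjusted p of up to 0.0972.

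Markers of other cell types were read beside the secreted genes. Of the fibroblast markers 6 of 11 on the array were measured, 2 rose and none fell, and Thy1, Dpt, Pi16 and Tcf21 stayed below 10 on all 6 arrays. Dcn, decorin, measured 2528, 2746 and 2359 on Day 2 and 5314, 5938 and 5082 on Day 5 (log2 fold change 1.10 ± 0.13, adjusted p = 0.00258) and Lum, lumican, measured 43.6, 43 and 80.4 on Day 2 and 134, 239.9 and 139 on Day 5 (log2 fold change 1.63 ± 0.31, adjusted p = 0.014). Both proteoglycans were higher on every Day 5 array, while Pdgfra, at 0.54, and Pdgfrb, at 0.42, were not called. The summed intensity of the 11 markers was 13300 to 15990 on Day 2 and 15130 to 20290 on Day 5. Of 10 adipocyte markers 2 were measured and both rose: Lpl, lipoprotein lipase, measured 228, 195 and 189 on Day 2 and 1040, 1308 and 836 on Day 5 (log2 fold change 2.36 ± 0.19, adjusted p = 0.00065) and Cebpa, an adipogenic factor, measured 51.7, 62.6 and 33.8 on Day 2 and 107, 205 and 121 on Day 5 (log2 fold change 1.53 ± 0.30, adjusted p = 0.0155). The defining markers Adipoq, Fabp4, Cidec, Lep and Retn, and the glucose transporter Slc2a4, stayed below 10 on all 6 arrays. The summed intensity of the 10 adipocyte markers was 992 to 1251 on Day 2 and 3428 to 5067 on Day 5. Of 10 smooth muscle markers 5 were measured and 2 rose, Acta2 and Mylk, a myosin light chain kinase at 77.1, 54.2 and 32.8 on Day 2 and 150.2, 155 and 107 on Day 5, while Myh11, Cnn1, Myocd and Synm stayed below 10. The other probe set of Acta2 was at 0.15 and not called. The summed intensity of the 10 smooth muscle markers was 9887 to 11340 on Day 2 and 11350 to 11840 on Day 5. Tagln, transgelin, measured 402, 692 and 217 on Day 2 and 707, 1175 and 1055 on Day 5 and was not called (adjusted p = 0.0716), but was without Day 2 replicate 2, with an adjusted p of 0.0119, and Smtn was at 0.06. Of 10 neuronal markers on the array 2 were measured, Map2 and Gap43, both through Day 2 alone, so that they could be counted as falls only, and Map2 fell by 2.00 on the log2 scale. The summed intensity of the 10 neuronal markers was 495 to 782 on Day 2 and 110 to 172 on Day 5. Sox9, the measured gene among 10 osteoblast and chondrocyte markers, was at -0.32, and these 10 summed to 199 to 233 on Day 2 and 144 to 202 on Day 5. The part of these cell types in the changes was not tested. Lum, Cebpa and Mylk each passed the level filter through Day 5 alone and could be counted as rises only. The calls of Lum, Cebpa and Mylk were each lost in 1 or more fits without Day 2 replicate 1 or 3 or Day 5 replicate 1 or 2, with an adjusted p of up to 0.0846.

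Chemokines and cytokines were the list with the largest share of rises in the plot of gene lists, 7 of 12 measured (58.3%) with 1 fall. Of the 10 that reached 100 on both days, 5 rose and 1 fell. Ptgs2, the inducible cyclooxygenase, measured 371, 252 and 341 on Day 2 and 1631, 1465 and 1406 on Day 5. Cxcl1, a chemokine for neutrophils, measured 201, 308 and 144 on Day 2 and 512, 1115 and 709 on Day 5. Csf1, a growth factor of macrophages, measured 1082, 873 and 828 on Day 2 and 1949, 2854 and 1848 on Day 5. Day 5 arrays stood above Day 2 arrays in each, at 2.24 ± 0.17 (SE, adjusted p = 0.000643), 1.84 ± 0.35 (SE, adjusted p = 0.0133) and 1.24 ± 0.20 (SE, adjusted p = 0.0073). Cx3cl1, Ccl7, Ccl2 and Cxcl12 rose by 2.16, 1.49, 1.13 and 1.07 on the log2 scale. The fall was that of Vcam1. Cxcl5 was at 1.02, and the regulators of NF-kB Nfkbia, Nfkb2 and Tnfaip3 were at 0.32, -0.55 and -0.50, none called with all 6 arrays. Of the genes of the interferon response none of 11 measured rose and 3 fell, Irf1, Irf9 and Samd9l, at -0.78, -0.66 and -1.14. Of the 7 that reached 100 on both days, none rose and 1 fell. B2m, H2-D1, Lgals3bp, Ifit2, Ifit3, Ifitm3, Ifi35 and Xaf1, which include antigen presentation and antiviral genes, were at 0.14, 0.36, 0.56, 0.12, 0.91, 0.04, -0.42 and -0.70, not called. Cx3cl1 and Ccl2 each passed the level filter through Day 5 alone and could be counted as rises only. Irf9 and Samd9l each passed the level filter through Day 2 alone and could be counted as falls only. Chemokine rises came to 4 without Day 2 replicate 1 or 3 or Day 5 replicate 2. Interferon falls came to 0 without Day 2 replicate 1 or 3. The calls of Ccl7, Ccl2, Cxcl12, Irf1, Irf9 and Samd9l were each lost in 1 or more fits without Day 2 replicate 1 or 3 or Day 5 replicate 1, 2 or 3, with an adjusted p of up to 0.149.

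**Figure D5:**
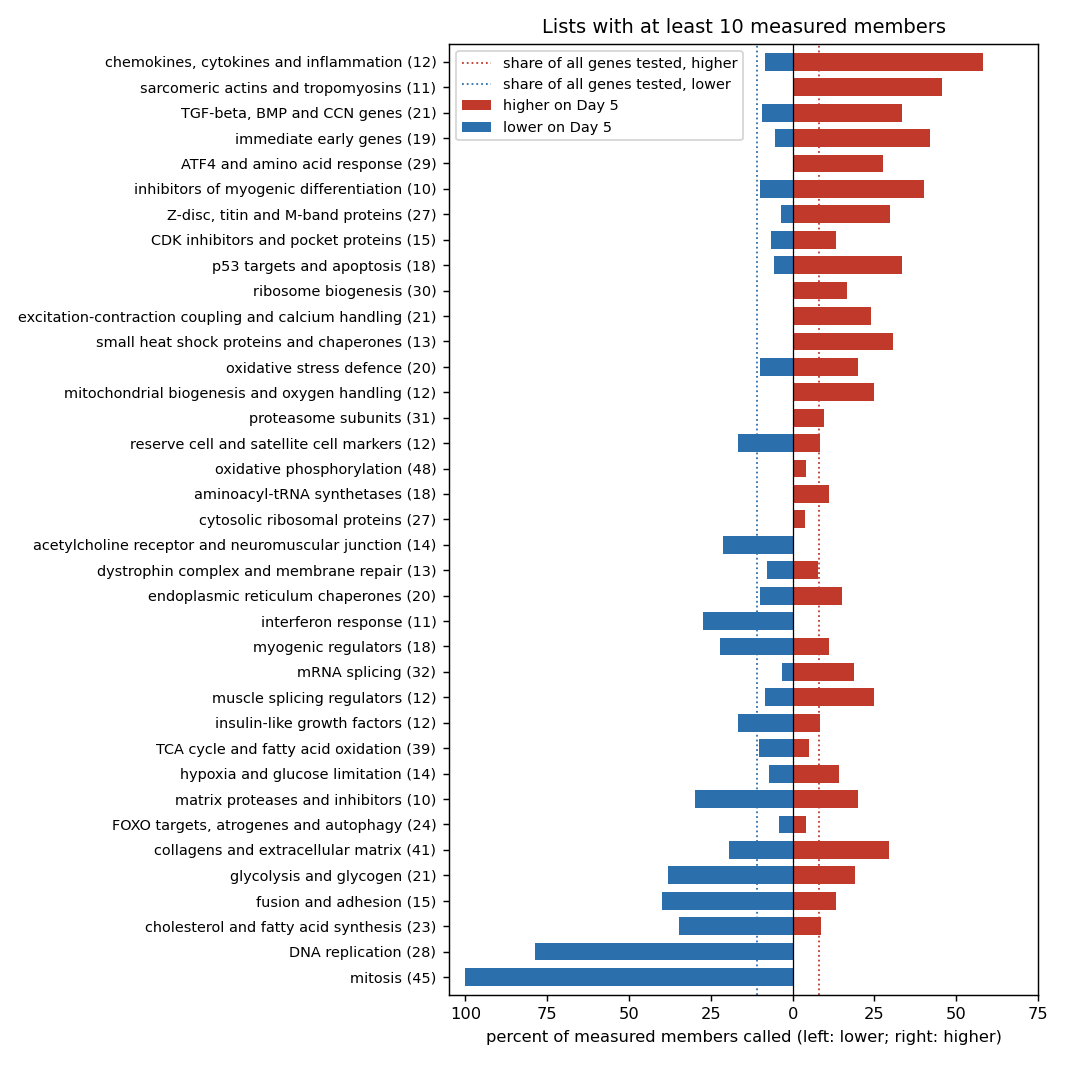
Percent of the measured members of each list (number in brackets) that were called lower (left, blue) or higher (right, red) on Day 5, for the lists with at least 10 measured members ordered by their median log2 fold change, with dotted lines at the shares of all genes tested, 8.12% higher and 11.0% lower. The mitosis and DNA replication lists lie at the foot, where 32 of 45 and 13 of 28 members passed the level filter through Day 2 alone.

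Genes of energy metabolism moved in both directions, and some isoforms of 1 enzyme moved apart. In glycolysis and glycogen metabolism 8 of 21 measured genes fell (38.1%) and 4 rose. Tpi1, triosephosphate isomerase, measured 3175, 3783 and 3883 on Day 2 and 1856, 1860 and 2074 on Day 5, and Pfkl, the liver isoform of phosphofructokinase, measured 381, 395 and 483 on Day 2 and 222, 223 and 172 on Day 5. Each was lower on every Day 5 array, and further probe sets of both were called lower (log2 fold change -0.90 ± 0.13, adjusted p = 0.00558 for Tpi1 and log2 fold change -1.03 ± 0.16, adjusted p = 0.00657 for Pfkl). Pfkm, the muscle isoform, measured 1842, 1519 and 1680 on Day 2 and 3352, 2427 and 2600 on Day 5 and rose (log2 fold change 0.72 ± 0.16, adjusted p = 0.0243), whereas Pfkp, the platelet isoform, measured 898, 654 and 1076 on Day 2 and 544, 390.3 and 415 on Day 5 and fell (log2 fold change -0.95 ± 0.22, adjusted p = 0.0259). Both were chosen for mention after their values were seen. Pygm, the glycogen phosphorylase of muscle, rose by 0.79 ± 0.12 and Pdk4, a kinase that restrains pyruvate oxidation, by 1.46 ± 0.23. Ckm, the muscle isoform of creatine kinase, measured 1116, 1446 and 1053 on Day 2 and 626, 432 and 622 on Day 5 (log2 fold change -1.11 ± 0.20, adjusted p = 0.0106), and Ckb, the brain isoform, measured 108, 144 and 97.6 on Day 2 and 40.3, 44.8 and 46.2 on Day 5 (log2 fold change -1.40 ± 0.17, adjusted p = 0.00278). Gatm, an enzyme of creatine synthesis, fell by 0.98 ± 0.14, so 3 of 7 measured genes of energy buffering were lower and none higher. Of the 6 that reached 100 on both days, none rose and 2 fell. Ak1, Ampd3, Adssl1 and Slc6a8 were at -0.12, -0.21, 0.08 and 0.34, not called. Ckb passed the level filter through Day 2 alone and could be counted as a fall only. Glycolysis rises came to 2 without Day 2 replicate 1 or 3 or Day 5 replicate 1 and falls came to 2 without Day 2 replicate 1 or 3 and 3 without Day 5 replicate 1 or 2. The calls of Pfkm and Pfkp were each lost in 1 or more fits without Day 2 replicate 1 or 3 or Day 5 replicate 1, 2 or 3, with an adjusted p of up to 0.0966.

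Few genes of oxidative phosphorylation were called. Of 48 measured subunits 2 rose (4.17%), below the 8.12% of all genes tested, and the median was 0.13. Cox6a2, the muscle isoform of a cytochrome c oxidase subunit, measured 503, 942 and 450.1 on Day 2 and 1959, 1437 and 2730 on Day 5. Its other probe set also rose (log2 fold change 1.72 ± 0.33, adjusted p = 0.0135 for the first). Ndufv1, a subunit of complex I, rose by 0.47 ± 0.12. Without Day 2 replicate 2 and Day 5 replicate 3, 10 of the 48 were called higher, while the genes called higher over all rose from 594 to 1036. Mb, myoglobin, which carries oxygen in muscle, measured 819, 1001 and 840.5 on Day 2 and 2993, 2334 and 3262 on Day 5. It rose with no overlap (log2 fold change 1.68 ± 0.17, adjusted p = 0.00137). Esrrg, an orphan receptor that drives oxidative genes, measured 20.2, 4.99 and 22.4 on Day 2 and 155, 68.4 and 102 on Day 5 (log2 fold change 2.97 ± 0.58, adjusted p = 0.0143, or 1.04 after values under 50 were raised to 50), and Vegfa, the angiogenic factor, rose by 0.97 ± 0.13. The rest of the 12 measured genes of mitochondrial biogenesis and dynamics, Esrra, Tfam, Mfn1, Mfn2, Opa1, Dnm1l, Sirt1, Sirt3 and Nampt, lay between -0.34 for Nampt and 0.38 for Sirt1, none called. Of 39 measured genes of the TCA cycle and fatty acid oxidation 2 rose (5.13%) and 4 fell (10.3%), near the 8.12% and 11.0% of all genes tested. Of the 37 that reached 100 on both days, 1 rose and 4 fell. The rises were Lpl and Cd36, a fatty acid transporter at 43.3, 41.1 and 37.6 on Day 2 and 159, 106 and 115 on Day 5 (log2 fold change 1.62 ± 0.18, adjusted p = 0.00195), and the falls included Acaa2 and Decr1, enzymes of beta-oxidation, at -0.78 and -0.78. Esrrg and Cd36 each passed the level filter through Day 5 alone and could be counted as rises only. TCA and fatty acid falls came to 2 without Day 2 replicate 1 or 3 or Day 5 replicate 1. The call of Ndufv1 was lost whichever of the 6 arrays was left out, with an adjusted p from 0.0538 to 0.145. The calls of Cox6a2 and Esrrg were each lost in 1 or more fits without Day 2 replicate 1 or 3 or Day 5 replicate 1, with an adjusted p of up to 0.0562.

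Sterol and fatty acid synthesis fell in part. Of 23 measured genes 8 fell (34.8%), 2 rose and the median was -0.48. Of the 19 that reached 100 on both days, 2 rose and 6 fell. Elovl6, an elongase of fatty acids, measured 181, 119 and 185 on Day 2 and 26.3, 41.6 and 17.6 on Day 5 (log2 fold change -2.56 ± 0.32, adjusted p = 0.00305). Srebf2, the transcription factor that drives sterol synthesis, measured 642, 587 and 643 on Day 2 and 336, 386 and 327 on Day 5 (log2 fold change -0.84 ± 0.13, adjusted p = 0.00579). Both were lower on every Day 5 array, and another probe set of Srebf2 was called lower. Dhcr7, which makes the last step to cholesterol, went against them at 157, 168 and 132 on Day 2 and 359, 256 and 334 on Day 5 (log2 fold change 1.04 ± 0.17, adjusted p = 0.00779), as did Acsl3, an acyl-CoA synthetase, at 0.76. Elovl6 passed the level filter through Day 2 alone and could be counted as a fall only. Sterol and fatty acid falls came to 2 without Day 2 replicate 3, 3 without Day 2 replicate 1, 4 without Day 5 replicate 1 or 2 and 5 without Day 5 replicate 3. The call of Acsl3 was lost without Day 2 replicate 3 or Day 5 replicate 1 or 2, with an adjusted p of up to 0.0772.

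Of 29 measured targets of ATF4, the factor of the amino acid response, 8 rose (27.6%) and none fell, with a median of 0.42, against -0.04 over all genes tested. Atf3, a stress-induced factor, measured 304, 298 and 374 on Day 2 and 892, 696 and 874 on Day 5. Trib3, a pseudokinase that restrains this response, measured 889.8, 849 and 969 on Day 2 and 2096, 1936 and 1981 on Day 5. In both the days were far apart relative to the spread (log2 fold change 1.33 ± 0.16, adjusted p = 0.00258 and log2 fold change 1.15 ± 0.12, adjusted p = 0.00172). Pck2, the mitochondrial form of phosphoenolpyruvate carboxykinase and another ATF4 target, measured 151, 158 and 188 on Day 2 and 188, 177 and 156 on Day 5, with overlapping arrays and log2 fold change 0.07 ± 0.14, adjusted p = 0.79. Without Day 2 replicate 2 and Day 5 replicate 3 the 8 became 15, while the genes called higher over all rose from 594 to 1036. In the related list of aminoacyl-tRNA synthetases 2 of 18 rose (11.1%, against 8.12% of all genes tested), Eprs and Farsb, at 0.82 and 0.50. The other 2 probe sets of Farsb lay at -0.02 and 0.02 and were not called. Among endoplasmic reticulum chaperones 3 of 20 rose, Herpud1 and Dnajb9 among them at 0.60 and 0.66, and 2 fell, Edem1 and Canx, at -0.78 and -0.71, although the other 2 probe sets of Canx lay at 0.08 and 0.17. Of the 17 that reached 100 on both days, 2 rose and none fell. Edem1 and Canx each passed the level filter through Day 2 alone and could be counted as falls only. ATF4 target rises came to 3 without Day 2 replicate 3, 4 without Day 2 replicate 1 and 5 without Day 5 replicate 1, 2 or 3. Chaperone rises came to 0 without Day 2 replicate 1 or 3 and 1 without Day 5 replicate 1, 2 or 3 and falls came to 0 without Day 2 replicate 1 or 3 or Day 5 replicate 1. Synthetase rises came to 0 without Day 2 replicate 3 or Day 5 replicate 1 or 2. The calls of Eprs, Farsb, Herpud1, Dnajb9, Edem1 and Canx were each lost in 1 or more fits without Day 2 replicate 1, 2 or 3 or Day 5 replicate 1, 2 or 3, with an adjusted p of up to 0.171.

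Of the list of p53 targets and genes of apoptosis, 6 of 18 measured rose (33.3%) and 1 fell (5.56%), against 8.12% and 11.0% of all genes tested. Eda2r, a receptor of ectodysplasin, measured 795, 643 and 752 on Day 2 and 1750, 1415 and 1324 on Day 5 (log2 fold change 1.03 ± 0.16, adjusted p = 0.00579), and Mdm2, the ligase that restrains p53, measured 389, 354 and 385 on Day 2 and 603, 564 and 610.5 on Day 5 (log2 fold change 0.66 ± 0.12, adjusted p = 0.0109). Their Day 5 arrays were above those of Day 2. The fall was Casp12, an endoplasmic reticulum caspase, at -0.72. Small heat shock proteins and chaperones rose in 4 of 13 (30.8%, against 8.12% of all genes tested) and none fell. They were led by Hspb7 and Hspb3, both of muscle. Hspb7 measured 18.1, 28 and 32.7 on Day 2 and 150.4, 124 and 224 on Day 5. Hspb3 measured 26.9, 54.1 and 21 on Day 2 and 139, 99.8 and 180 on Day 5. Of the 11 that reached 100 on both days, 2 rose and none fell. Hspb7 and Hspb3 passed the level filter through Day 5 alone, at log2 fold changes of 2.66 ± 0.28 and 2.12 ± 0.36. In oxidative stress defence 4 of 20 rose and 2 fell, with Gpx3, named above, and Gstm1 rising, the latter by 1.17, and Gsr and Mt2 falling by 0.77 and 1.22. Of the 16 that reached 100 on both days, 2 rose and 1 fell. Gsr passed the level filter through Day 2 alone and could be counted as a fall only. Rises in the list of p53 targets and apoptosis came to 2 without Day 2 replicate 3 and 3 without Day 2 replicate 1 or Day 5 replicate 1 or 2. Small heat shock rises came to 2 without Day 2 replicate 1 or 3. Oxidative stress defence rises came to 2 without Day 2 replicate 1 or 3 or Day 5 replicate 1, 2 or 3. The calls of Mdm2, Casp12 and Mt2 were each lost in 1 or more fits without Day 2 replicate 1, 2 or 3 or Day 5 replicate 1 or 2, with an adjusted p of up to 0.138.

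Of 19 measured immediate early genes, which respond quickly to serum and other stimuli, 8 rose (42.1%) and 1 fell (5.26%) between Day 2 and Day 5. Over all genes tested the shares were 8.12% and 11.0%. Of the 17 that reached 100 on both days, 6 rose and 1 fell. The rises were not steady: 15 of the 19 were lower on Day 4 than on Day 3 and 4 higher. The median of Day 4 minus Day 2 over the list was -0.08 on the log2 scale. Nr4a1, a nuclear receptor, measured 53.5, 63.7 and 57.2 on Day 2 and 121, 137 and 165 on Day 5 (log2 fold change 1.27 ± 0.16, adjusted p = 0.00279). Klf2, the gene that fell, measured 619, 877 and 725 on Day 2 and 149, 152 and 251 on Day 5 (log2 fold change -2.04 ± 0.24, adjusted p = 0.00251). Fos and Egr1, chosen for mention after their values were seen, were higher on Day 5 but lowest on Day 4. Fos measured 35.3, 45.8 and 55.2 on Day 2 and 118, 187 and 178 on Day 5, with 109.8, 82.4 and 77.6 on Day 3 and 29.5, 13.6 and 20.3 on Day 4. Egr1 measured 1434, 1640 and 1198 on Day 2 and 2531, 3336 and 3167 on Day 5, with 2676, 2601 and 2508 on Day 3 and 1095, 827 and 942 on Day 4. For both genes every Day 4 array was below every Day 2 array, and every Day 3 and Day 5 array was above them. In the limma fit to 12 arrays both steps around Day 4 were called. The adjusted p from Day 3 to Day 4 was 0.0242 for Fos and 0.00726 for Egr1, and from Day 4 to Day 5 it was 0.00178 for each. The medium was renewed every 2 days, and the time from the last change to harvest was not given for any day, so its part in these values was not tested. Nr4a1 and Fos each passed the level filter through Day 5 alone and could be counted as rises only.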

How the data were processed

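RNA of C2C12 cells was measured on 24 Affymetrix mouse arrays of 45101 probe sets, of which the 3 arrays of Day 2 and the 3 of Day 5 were compared and the 6 of Day 3 and Day 4 were used beside them. The deposited values are intensities on a linear scale: the authors summarised probes by GC-RMA, took the values back from log2 and set the trimmed mean of each array near 150, while MAS5 is also named in the submitters' processing notes with no role given. The array build was not given in the sources used here. Of the probe sets, 34958 had 1 gene in the platform annotation, 932 several and 9211 none, and 34754 matched RefSeq by identifier.

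Values were taken to log2. Probe sets whose mean reached 100 on either day were fitted with limma 3.58.1 in R 4.3.3 (lmFit and eBayes), with Benjamini-Hochberg adjustment and a threshold of 0.05, and the script was tested on simulated data. An exact permutation test of 3 arrays against 3 cannot go below 0.1, so calls rest on the fit across probe sets. The number of arrays limits the precision. A gene took the probe set with the largest moderated t, and its other probe sets were compared. The genes named were the 15 largest rises and falls among called genes whose arrays did not overlap, with values under 50 raised to 50, up to 2 called members per direction with the lowest adjusted p in each of 51 gene lists, each measured member of lists of at most 12, the myogenic regulators, Pck2 and Myog; other genes are marked where named. Members and lists were chosen with earlier results of these data known. The alternatives were other spreads, filters, scalings, probe set choices, a replicate block, and leaving out each array. Figures were drawn with matplotlib 3.10.9 in Python 3.11.15.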

Additional observations from a re-analysis of the deposited data

How the results depend on the processing

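No probe set called with all settings as reported for Day 5 against Day 2 was called in the opposite direction by an alternative, but the counts moved. Probe sets called higher and lower were 1454 and 1802 when the spread was estimated from the 12 arrays of Day 2 to Day 5, 1876 and 2405 from 24 arrays, 434 and 498 on linear values, 323 and 435 with at least a 2-fold change, 292 and 426 at an adjusted p under 0.01, and 1479 and 1774 without Day 2 replicate 2 and Day 5 replicate 3, an alternative chosen after seeing the data. Without a level filter 548 were higher. The genes called higher and lower were in the same order 1006 and 1328, 1257 and 1726, 318 and 397, 219 and 330, 217 and 332, and 1036 and 1284. Leaving out 1 array, or both of these, gave 326 to 1479 probe sets higher and 460 to 1774 lower, and 242 to 1036 genes higher and 362 to 1284 lower, with the fewest genes without Day 2 replicate 3. The labels do not say whether the replicate numbers pair the arrays. The deviations of arrays with the same number correlated at 0.45, -0.385 and -0.532. These values cannot decide it, because deviations from the mean of a day depend on each other and 1 array of each day stood apart. With the replicate block 454 probe sets were higher and 590 lower, or 319 and 454 genes, and Day 3 against Day 2 and Day 5 against Day 4 gave 24 and 15. With values under 50 raised to 50, Day 3 against Day 2 gave 164 calls and Day 4 against Day 3 gave 2, and separate fits gave 171 and, for Day 5 against Day 4, 4. Leaving out the arrays of 1 replicate number on each of the 4 days gave 0 to 27, 0 and 0 to 7 calls for the 3 neighbouring pairs of days, and 614 to 1268 upward and 983 to 2037 downward slopes. The test of the change from Day 2 to Day 3 against that from Day 4 to Day 5 gave 0 calls in each of these fits of 4 days. The share of called probe sets that moved the same way from Day 3 to Day 4 lay between 75.8% and 89.5% for those higher and between 85.3% and 96.4% for those lower without the Day 3 and Day 4 arrays of 1 replicate number, and was 95.5% for the latter with a level filter of 200. Of the 166 called genes named in the text, 107 kept their call without each array in turn, and of the 108 not called, 18 gained one. Among the genes named and not called, the log2 difference changed sign for these when arrays were left out, with ranges of Bhlhe40 -0.0028 to 0.16, Cxcr4 -0.39 to 0.042, Esrra -0.0099 to 0.13, Ifit2 -0.11 to 0.26, Ifit3 -0.088 to 1.83, Ifitm3 -0.054 to 0.19, Insr -0.067 to 0.32, Mmp11 -0.030 to 0.18, Mmp14 -0.47 to 0.055, Myh3 -0.099 to 0.11, Myod1 -0.0001 to 0.14, Notch2 -0.099 to 0.35, Nr1d2 -0.11 to 0.26, Opa1 -0.0029 to 0.41, Sgce -0.041 to 0.15, Smtn -0.054 to 0.18, Srf -0.20 to 0.15 and Tead4 -0.26 to 0.12. For called and uncalled genes together, it changed sign by the brightest probe set Canx at 0.17, Itgb1 at -0.20, Myh9 at -0.14, Pck2 at -0.0023, Rbfox2 at 0.35, Sf3b1 at -0.10 and Tpm3 at -0.36, after quantile normalization Ifitm3 at -0.043, Myh3 at -0.072, Srf at 0.023, Tead4 at 0.0019 and Tnnc2 at -0.016, on linear values Srf at 0.0040, and after median centring Srf at 0.022. The cause of these shifts was not tested, except that fewer arrays leave fewer degrees of freedom. The Day 2 values of Omd lay under the level filter of 100, where an array's signal over background limits the size of a fold change.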

Other observations

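Genes of RNA processing that control the splicing of muscle transcripts moved in both directions, with 3 of 12 measured muscle splicing regulators higher and 1 lower. Srpk3, a muscle-specific kinase of splicing factors, measured 335, 376 and 337 on Day 2 and 193, 126 and 160.3 on Day 5 (log2 fold change -1.15 ± 0.18, adjusted p = 0.0059). Rbm24, an RNA-binding protein of muscle, measured 439, 423 and 335 on Day 2 and 658, 576 and 651 on Day 5 (log2 fold change 0.66 ± 0.15, adjusted p = 0.0243). Srpk3 was lower and Rbm24 higher on every Day 5 array. Rbm38 rose by 1.00 on the log2 scale, and Qk, the quaking gene, by 0.73, but the other 6 probe sets of Qk lay between -0.25 and 0.75. Mbnl1, Mbnl2, Mbnl3, Celf1, Celf2, Rbfox2, Rbm20 and Ptbp1 were at 0.48, 0.24, -0.54, 0.13, -0.39, -0.46, -0.49 and -0.20, not called. Among 32 measured general splicing genes 6 rose (18.8%) and 1 fell (3.12%), against the same shares of all genes tested. Srsf5, an SR protein, measured 1622, 1685 and 1603 on Day 2 and 3016, 2959 and 2675 on Day 5 (log2 fold change 0.82 ± 0.12, adjusted p = 0.00505), with no overlap. Sf3b1, a subunit of the U2 particle, rose by 0.89 by the probe set chosen, with its other 3 between -0.10 and 0.43, and Hnrnpd fell by 0.58. Muscle splicing regulator rises came to 0 without Day 2 replicate 3 and 1 without Day 2 replicate 1 or Day 5 replicate 1, 2 or 3. General splicing rises came to 2 without Day 2 replicate 1 or 3 or Day 5 replicate 2 and 3 without Day 5 replicate 1. The call of Hnrnpd was lost whichever of the 6 arrays was left out, with an adjusted p from 0.0631 to 0.14. The calls of Rbm24, Rbm38 and Qk were each lost in 1 or more fits without Day 2 replicate 1 or 3 or Day 5 replicate 1, 2 or 3, with an adjusted p of up to 0.116.

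In 3 lists of protein synthesis and turnover, ribosome biogenesis, ribosomal proteins and proteasome subunits, 16.7%, 3.70% and 9.68% of the measured genes were higher, against 8.12% of all genes tested. Of 30 measured genes of ribosome biogenesis 5 rose and none fell, with Gnl3, nucleostemin, at 592, 628 and 559 on Day 2 and 1115, 976 and 1054 on Day 5 (log2 fold change 0.82 ± 0.12, adjusted p = 0.00561) and Rrp12 rising by 0.96. Of 27 ribosomal protein genes 1 rose, Rps20, by 0.96, and without both Day 2 replicate 2 and Day 5 replicate 3 there were 5. In that fit the genes called higher over all rose from 594 to 1036. Of 31 proteasome subunits 3 rose and none fell, and Psmc6, an ATPase of the regulatory particle, measured 298, 312 and 290.2 on Day 2 and 544, 658 and 546 on Day 5 (log2 fold change 0.95 ± 0.13, adjusted p = 0.0041), with Psmd6 rising by 0.76. Rps20 passed the level filter through Day 5 alone and could be counted as a rise only. Ribosomal protein rises came to 4 without Day 2 replicate 2. Ribosome biogenesis rises came to 1 without Day 2 replicate 3, 2 without Day 5 replicate 1 or 2 and 3 without Day 2 replicate 1 or Day 5 replicate 3. The call of Rrp12 was lost without Day 2 replicate 3, with an adjusted p of up to 0.0589.

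Of 8 measured clock genes 3 rose (37.5%, against 8.12% of all genes tested). Cry2, a repressor of the clock, measured 151, 153 and 158 on Day 2 and 293, 271 and 226 on Day 5 (log2 fold change 0.77 ± 0.14, adjusted p = 0.0109). Dbp and Nfil3, a pair of bZIP output factors, rose by 0.64 and 0.71, and Tef, Clock, Cry1, Nr1d2 and Bhlhe40 were at 0.68, 0.56, 0.48, 0.06 and 0.09, not called. The labels do not give the hour of harvest. Of 6 imprinted genes Mest, an imprinted hydrolase-like gene, measured 114, 187 and 102 on Day 2 and 9.86, 31.5 and 8.98 on Day 5 (log2 fold change -3.20 ± 0.48, adjusted p = 0.00561) and fell with no overlap, having passed the level filter through Day 2 alone, Dcn rose, and Peg3, Gnas, Igf2 and Sgce were not called. In the hypoxia list 2 of 14 rose (14.3%), Egln3 by 0.53 and Vegfa, and 1 fell (7.14%), against 8.12% and 11.0% of all genes tested. The fall was that of Pdk1, by 1.04, while its other 2 probe sets were at -0.03 and -0.01. Pdk1 passed the level filter through Day 2 alone and could be counted as a fall only. Clock rises came to 1 without Day 2 replicate 1 or 3. The calls of Cry2, Dbp, Nfil3, Egln3 and Pdk1 were each lost in 1 or more fits without Day 2 replicate 1 or 3 or Day 5 replicate 1, 2 or 3, with an adjusted p of up to 0.155.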
